A study of Mus musculus with 22 samples.

Results

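Krüppel-like factors (KLFs) are zinc-finger transcription factors, and 10 of their genes (Klf1, Klf2, Klf3, Klf4, Klf6, Klf7, Klf9, Klf10, Klf12 and Klf13) were taken by name from the 47311 genes of the 22 libraries. For each gene the TPM and the estimated counts of all its transcripts were summed in every library. KO mice were Arid1a f/f;Mx1-Cre+, and WT mice were littermates of the same sex without Cre (Arid1a f/f;Mx1-Cre-), all on a C57BL/6 background. Both genotypes received 5 doses of 300 µg poly(I:C) at 8 to 14 weeks of age, which induces the Mx1 promoter that drives Cre, and marrow cells were sorted 4 weeks later. Common myeloid precursors (CMP), sorted as Lin-Kit+Sca1-CD34+ cells with low FcγRII/III, granulocyte monocyte precursors (GMP; the same with high FcγRII/III) and megakaryocyte erythrocyte progenitors (MEP; CD34- and FcγRII/III-) came from 3 mice of each genotype, and every mouse contributed all 3 populations. Long-term hematopoietic stem cells (LT-HSC; CD34-Flt3- LSK cells) came from 2 WT and 2 KO other mice, and a low-input cDNA kit (SMART-Seq v4) was used in place of the poly-A kit of the precursors. Population differences between LT-HSC and the precursors therefore cannot be told apart from mouse and kit. Each mouse is named by the number in its label.

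KLFs bind CACCC and GC-rich elements in promoters and enhancers and act as activators or repressors according to the cofactors they recruit. KLF1 is the erythroid member and activates globin, heme and red cell membrane genes, and Klf3 is among its known targets. KLF3 and KLF12 repress through the corepressor CtBP, KLF9, KLF10 and KLF13 can recruit SIN3A, and KLF2, KLF4, KLF6 and KLF7 mostly activate, KLF4 being known for its part in monocyte differentiation.

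Because Klf1, Klf3 and Klf4 carry the main differences described here, the bases before their transcription starts are shown. They are RefSeq sequences (GRCm38.p6), 5′ to 3′ in the direction of the gene, and stop before the annotated start of the gene. The Klf1 run is the plus strand of chr8:84901732-84901927, the Klf3 run the plus strand of chr5:64803271-64803387 and the Klf4 run the minus strand of chr4:55532476-55532725. The genes themselves lie at chr8:84901928-84905291 (Klf1, 1 transcript), chr5:64803388-64832901 (Klf3, 9 transcripts) and chr4:55527143-55532466 (Klf4, 3 transcripts) in GENCODE vM21. Capitals mark matches on either strand to GATAA, the core that GATA factors bind, or to the CCNCNCCC element of KLFs.

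Klf1: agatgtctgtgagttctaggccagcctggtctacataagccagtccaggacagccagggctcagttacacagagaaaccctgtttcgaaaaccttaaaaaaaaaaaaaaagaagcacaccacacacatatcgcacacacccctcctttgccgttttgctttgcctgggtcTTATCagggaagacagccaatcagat
Klf3: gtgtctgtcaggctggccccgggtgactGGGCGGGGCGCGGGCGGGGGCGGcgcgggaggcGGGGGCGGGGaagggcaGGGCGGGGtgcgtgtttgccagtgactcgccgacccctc
Klf4: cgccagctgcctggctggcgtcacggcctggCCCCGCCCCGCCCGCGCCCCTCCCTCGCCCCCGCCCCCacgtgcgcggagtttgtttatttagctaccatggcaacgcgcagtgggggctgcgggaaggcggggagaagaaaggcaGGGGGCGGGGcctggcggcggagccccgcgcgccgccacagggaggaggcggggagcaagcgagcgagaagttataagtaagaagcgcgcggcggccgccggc

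The 196 bases of Klf1 held 1 GATAA match and 0 CCNCNCCC matches. The 117 bases of Klf3 held 0 GATAA and 7 CCNCNCCC matches, and the 250 bases of Klf4 held 0 GATAA and 9 CCNCNCCC matches, so that none of the 3 runs held both motifs. Over the full 250 bases upstream in RefSeq, 22.6% of 32851 mouse promoters held GATAA and 45.9% held CCNCNCCC. Of the 9 KLF genes with such a sequence, Klf1 and Klf12 held GATAA (1 match each), while Klf1 and Klf9 held 0 CCNCNCCC matches and the others between 2 and 10. A match describes the letters and not binding.

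The libraries held 40804031 to 65930737 estimated counts on genes. Arid1a, in which exon 9 is floxed, had 23.7 and 29.9 TPM in WT LT-HSC against 10.7 and 10.9 TPM in KO LT-HSC. The log2 fold change of -1.14 did not pass edgeR's quasi-likelihood test there (adjusted p = 0.421). In the precursors the KO libraries kept most of the Arid1a signal, with a log2 fold change of -0.22 for CMP, -0.40 for GMP and -0.14 for MEP. These passed the same test (adjusted p = 0.028, 0.025 and 0.084), but the sum over the gene is a weak check of an exon deletion. For the sorted CMP, GMP and MEP cells of KO mice, the paper reports that the floxed exon was completely deleted. It also reports loss of the encoded protein in KO bone marrow. The sort markers went with the labels in GMP (Fcgr3 218 to 284 TPM over both genotypes, against 4.93 to 13.8 TPM in CMP) and in MEP (Cd34 0.742 to 10.9 TPM, against 386 to 455 TPM in CMP). Cd34 was lower in KO GMP (140 to 221 TPM) than in WT GMP (272 to 291 TPM). The paper reports less CD34 on the surface of KO CMP and GMP. Whether the CD34 gate caught the same cells in both genotypes was not tested. The LT-HSC libraries held stem cell markers (Procr 59.9 to 162 TPM, Ly6a 267 to 644 TPM), but they also held Cd34 (51.3 to 166 TPM) and erythroid RNA. The summed level of 10 erythroid markers was 4508 to 6470 TPM in WT and 4523 to 4914 TPM in KO LT-HSC, above WT CMP (1269 to 1377 TPM), and their Hba-a1 (345 to 887 TPM) exceeded that of WT MEP (49.4 to 184 TPM). WT LT-HSC S245 also stood apart, with at least 10 counts on 27257 genes against 18557 to 22465 in the other LT-HSC libraries, although its total was the smallest. In these bulk samples fewer cells of a type and less RNA per cell cannot be told apart.

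Klf1 was the highest of the 10 genes in WT MEP and WT CMP and Klf13 in WT GMP. Klf1 made up 78.2% of the summed mean TPM of the 10 genes in WT MEP (451 ± 35.3 TPM, SD, n = 3) and 44.0% in WT CMP (150 ± 7.38 TPM, SD, n = 3). In WT GMP, where the sum was 74.3 ± 6.78 TPM (SD, n = 3), Klf13 made up 37.3%. With Arid1a deleted, the summed mean was 583 ± 34.4 TPM in MEP, 258 ± 27.0 TPM in CMP and 66.8 ± 3.98 TPM in GMP (SD, n = 3 each).

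**Figure D1:**
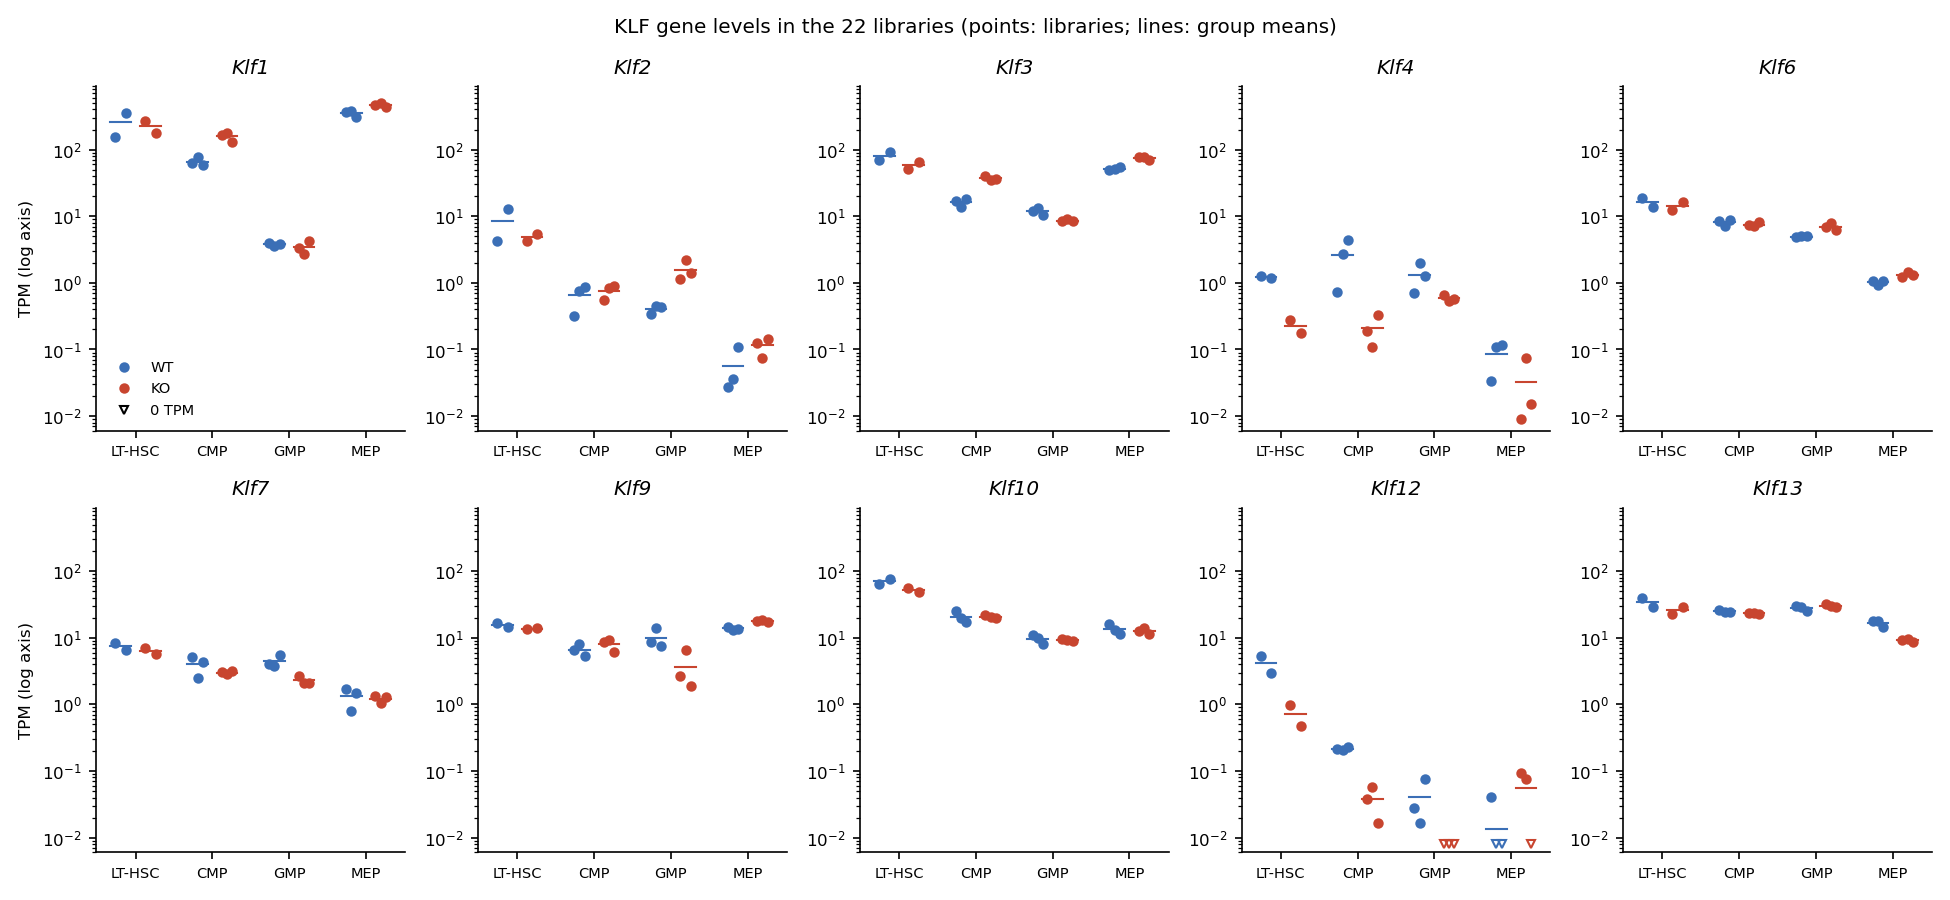
TPM of each KLF gene (log axis) in the 22 libraries by population, WT in blue and KO in red, with a point for each library, a line at each group mean and open triangles for libraries at 0 TPM. Klf1 spans from 2.73 TPM in a KO GMP library to 493 TPM in a KO MEP library, and Klf12 was at 0 in all KO GMP libraries.

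Between the WT populations, which came from the same 3 mice, 7 of the 10 genes differed between GMP and CMP at an adjusted p under 0.1 (45.3% of the 17476 genes tested; edgeR's quasi-likelihood test, p-values adjusted by Benjamini-Hochberg, here and throughout). All 10 differed between MEP and CMP (72.4% of all genes) and 9 between MEP and GMP (72.6%). Those shares of all genes are the background against which the counts stand. The counts include genes that passed the filter for low counts only through the population where they are higher. These were Klf2 and Klf4, scarce in MEP, and Klf12, scarce outside CMP, so they could hardly have come out the other way.

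Erythroid-type members followed the order MEP, CMP, GMP. Klf1 had 363, 382 and 313 TPM in WT MEP, 63.9, 76.1 and 58.0 TPM in WT CMP and 3.97, 3.59 and 3.89 TPM in WT GMP (mice 300, 305 and 309). The 3 ranges were far apart, and the log2 difference was 2.74 (SE 0.09) for MEP against CMP and -3.94 (SE 0.10) for GMP against CMP. Klf3 had 49.1, 51.3 and 55.2 TPM in WT MEP, 17.1, 13.96 and 17.9 TPM in WT CMP and 11.8, 13.3 and 10.5 TPM in WT GMP. Its log2 difference was 1.81 (SE 0.08) for MEP against CMP and -0.40 (SE 0.08) for GMP against CMP, so the same order came with a smaller span. Klf9 was also higher in MEP than in CMP (log2 difference 1.43, SE 0.17), but unlike Klf1 it was higher in GMP than in CMP too (0.76, SE 0.16).

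Klf2, Klf4, Klf6 and Klf7, whose proteins mostly activate, had their lowest mean TPM among the WT precursors in MEP. The same held for Klf12 and Klf13, so it was not particular to that group. Klf6 had 8.53, 7.21 and 8.65 TPM in WT CMP, 4.92, 4.98 and 4.99 TPM in WT GMP and 1.08, 0.942 and 1.06 TPM in WT MEP, 3 ranges that did not overlap. The log2 difference between MEP and CMP was -2.67 (SE 0.10) for Klf6, -1.54 (SE 0.14) for Klf7, -3.16 (SE 0.47) for Klf2 and -5.06 (SE 0.47) for Klf4. Klf2, Klf4 and Klf7 did not pass the test between GMP and CMP (adjusted p = 0.421, 0.346 and 0.323). In WT MEP, Klf2 rested on 2 to 6 and Klf4 on 1 to 11 estimated counts per library, so that both passed the filter for low counts through CMP and GMP. Klf4 in MEP was lower still without mouse 309 (log2 -5.91 against CMP and -5.88 against GMP, compared with -5.06 and -4.63), and so was Klf2 against GMP (-3.42 in place of -2.75).

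Of the SIN3A-binding members other than Klf9, Klf10 had 24.8, 19.6 and 17.4 TPM in WT CMP, 16.2, 12.9 and 11.4 TPM in WT MEP and 10.9, 10.1 and 8.16 TPM in WT GMP. Its log2 difference was -0.92 (SE 0.07) for GMP against CMP and -0.29 (SE 0.07) for MEP against CMP, and the latter call was lost without the mouse as a block (adjusted p = 0.125). Klf13 lay between 14.7 and 29.5 TPM in all 9 WT precursor libraries, with log2 differences of 0.24 for GMP and -0.27 for MEP against CMP (SE 0.06 each). Klf12, a CtBP-binding repressor, was low throughout and passed the filter through CMP alone, at 0.205 to 0.228 TPM in WT CMP, 0.0166 to 0.0761 TPM in WT GMP and 0 to 0.0405 TPM in WT MEP. Its call for GMP against CMP (log2 -2.26) was lost by DESeq2 (adjusted p = 0.140) and without mouse 300 or 305 (adjusted p = 0.124 and 0.145), and its log2 difference for MEP against CMP went from -3.37 to -6.61 without mouse 300, the mouse that gave all the Klf12 counts of WT MEP. Against GMP, Klf12 in MEP was -1.11 (adjusted p = 0.399), -4.54 (adjusted p = 0.089) without mouse 300 and 0.13 without mouse 309.

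**Figure D2:**
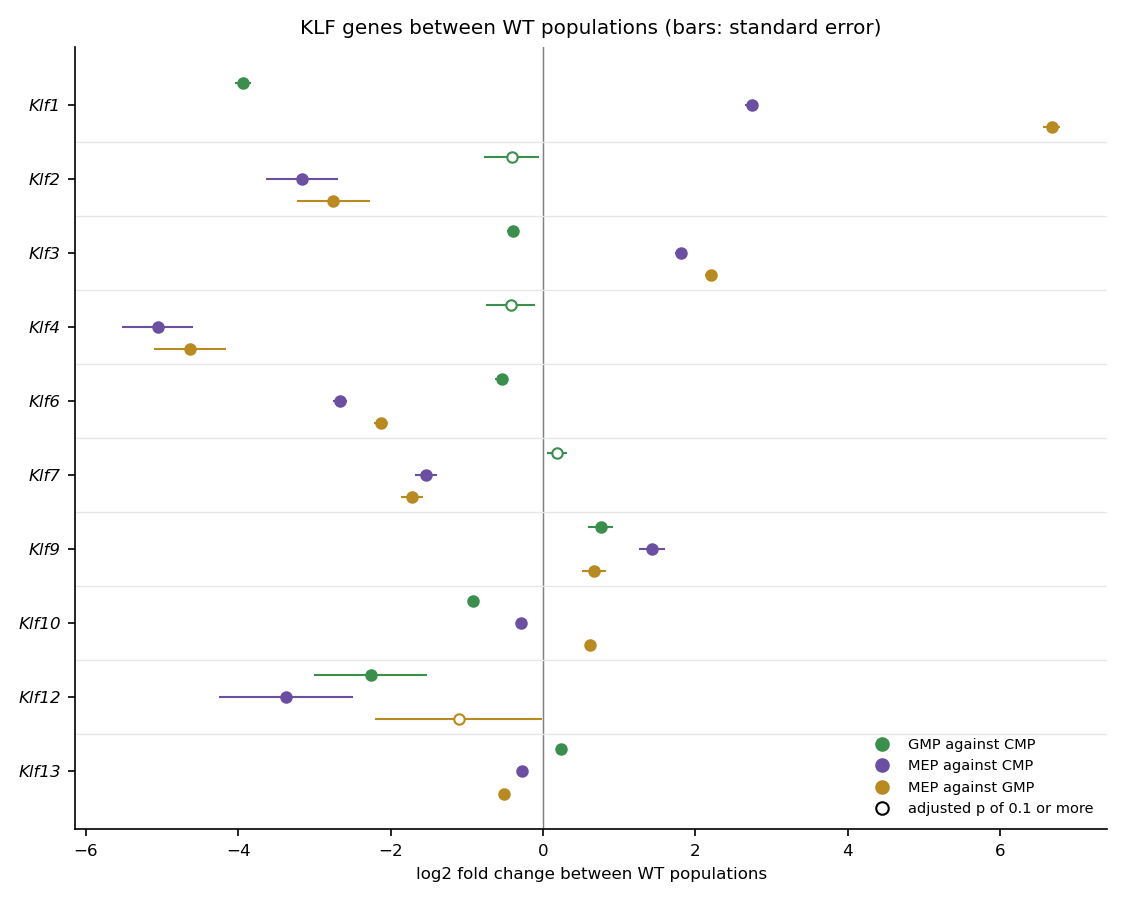
Log2 fold change of each KLF gene between WT populations (horizontal axis; points with standard errors, open where the adjusted p was 0.1 or more). Klf1 has the widest span, from -3.94 for GMP against CMP to 6.68 for MEP against GMP, whereas Klf13 stays between -0.51 and 0.24.

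In LT-HSC the same genes were measured with another kit. Klf10 (64.7 and 74.9 TPM in WT), Klf6 (19.0 and 13.5 TPM), Klf2 (4.30 and 12.9 TPM) and Klf12 (5.26 and 2.998 TPM) lay above every precursor library by TPM. So did Klf7 (8.42 and 6.52 TPM), but by CPM it was lower in WT LT-HSC (6.67 and 4.41 CPM) than in WT CMP (11.05 to 21.9 CPM). Klf13 was above WT CMP by TPM (38.9 and 28.7 against 24.1 to 26.0 TPM). By CPM it was below WT CMP (25.4 and 33.1 against 107 to 110 CPM). Klf2 in WT LT-HSC S245 (3.25 CPM) was below KO GMP 304 (3.37 CPM) by that measure. Klf1 had 153 and 359 TPM in WT LT-HSC S245 and S269, overlapping WT MEP, and the summed erythroid markers of these libraries were 4508 and 6470 TPM. In KO LT-HSC S244 and S270, Klf1 had 268.5 and 179 TPM beside erythroid marker sums of 4914 and 4523 TPM. Klf1 and the erythroid markers thus had the same order within each genotype, and the part of these markers in the Klf1 level was not tested. Markers of immediate early genes, which respond to cell handling, summed to 275 to 353 TPM in LT-HSC against 86.5 to 118.5 TPM in CMP, and their part in the LT-HSC levels was not tested.

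The transcripts to which reads were assigned also differed in LT-HSC. Klf13-201 (6396 bases) held 97.7% ± 3.12 of the Klf13 TPM in WT CMP (SD, n = 3) but 23.9% ± 7.13 in WT LT-HSC (SD, n = 2), where the short Klf13-204 (487 bases) held 71.3%. For Klf3, the retained-intron transcript Klf3-208 (1026 bases) held 51.4% ± 0.576 in WT and 52.5% ± 0.228 in KO LT-HSC (SD, n = 2 each), against 0.289% to 4.73% as the means of the 6 precursor groups. The main Klf3 transcript, Klf3-201 (5221 bases), held 65.3% to 76.4% in the precursor groups and 14.6% to 15.4% in LT-HSC. Klf7-202 (7662 bases) held 48.0% to 78.4% in the precursors and 5.89% to 10.7% in LT-HSC. In these 3 genes the longest transcript took the smaller share in LT-HSC. Klf4, which also has more than 1 transcript, did not show this. Its longest transcript, Klf4-201 (3029 bases), held 91.6% in WT and 89.0% in KO LT-HSC, against 85.5% in WT CMP and 99.0% in WT GMP. Since kallisto splits fragments that transcripts share, all these shares are estimates.

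**Figure D3:**
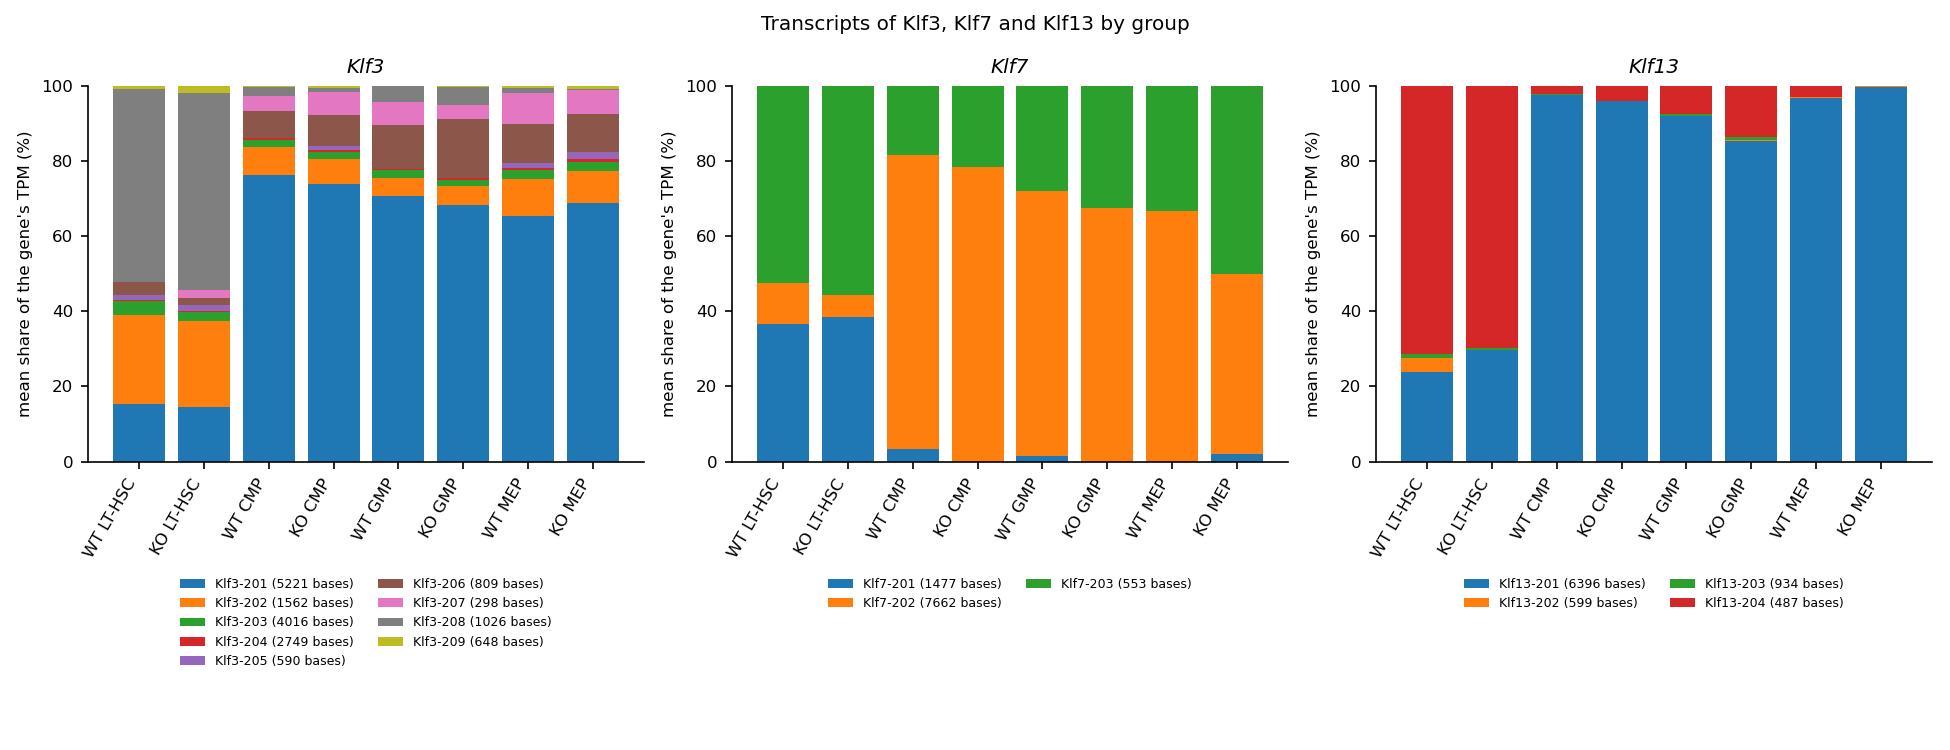
Mean share of each transcript in the summed TPM of Klf3, Klf7 and Klf13 (vertical axis, percent) for the 8 groups, with transcript lengths in the keys. The long Klf3-201, Klf7-202 and Klf13-201 hold most of the signal in the CMP and GMP groups and a small share in LT-HSC.

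When Arid1a was deleted, 5 of the 10 KLF genes passed the test in CMP (23.4% of 17214 genes tested), among them Klf12, which passed the filter for low counts only through its WT libraries. Over all 10 the median log2 fold change was -0.16, against -0.0027 over all genes. In GMP 7 of the 9 genes tested passed (33.9% of 16383 genes). Klf12 did not pass the filter for low counts there. In MEP 5 of the 7 genes tested passed (29.4% of 15777 genes), and Klf2, Klf4 and Klf12 did not pass the filter. In LT-HSC 0 of 10 passed by edgeR's quasi-likelihood test and 0 by DESeq2, 1 gene (Klf12) had an unadjusted p under 0.05, and 18 of 22733 genes (0.0792%) passed in all. The median of all genes in LT-HSC was -0.16. Whether the effect of the deletion differed between populations was tested over the 18 precursor libraries. It differed between GMP and CMP for 7 of the 10 genes (21.0% of 18523 genes), between MEP and CMP for 5 (13.1%) and between MEP and GMP for 5 (26.8%). Both counts for MEP include Klf12, which passed the filter through WT CMP and had 0 to 6 estimated counts in MEP libraries. The count for MEP and GMP also includes Klf10, whose call was lost without the mouse as a block (adjusted p = 0.444).

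**Figure D4:**
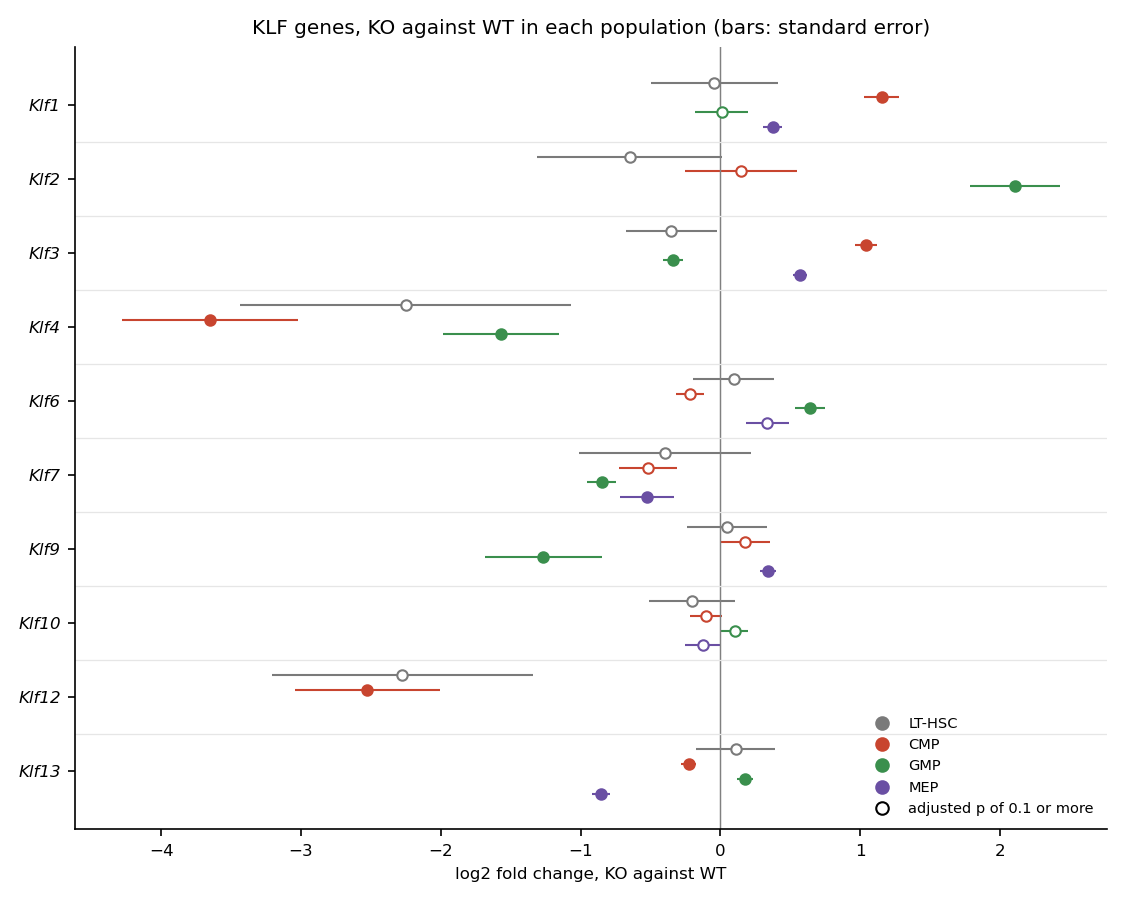
Log2 fold change of each KLF gene, KO against WT (horizontal axis), in LT-HSC, CMP, GMP and MEP, with standard errors and open points where the adjusted p was 0.1 or more; genes removed by the filter for low counts have no point. Klf1 and Klf3 lie to the right in CMP and MEP, Klf4 lies to the left in CMP and GMP, and Klf13 is lowest in MEP (-0.86).

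Klf1 rose in CMP and less in MEP. It had 166, 177 and 129.6 TPM in KO CMP (mice 301, 304 and 308) against 58.0 to 76.1 TPM in WT CMP, and the lowest KO library was above the highest WT library. This was a log2 fold change of 1.15 (SE 0.13, adjusted p = 0.00046), or a 2.23-fold rise. In MEP the KO libraries had 467, 493 and 437 TPM against 313 to 382 TPM, again without overlap, and the log2 fold change was 0.37 (SE 0.07, adjusted p = 0.0063). In GMP, where Klf1 is low, the KO libraries had 2.73 to 4.26 TPM around the WT range of 3.59 to 3.97 TPM (log2 fold change 0.011, SE 0.19). The effect in CMP exceeded that in MEP by 0.78 (SE 0.17) and that in GMP by 1.14 (SE 0.20) on the log2 scale, and both differences passed the test. The difference between MEP and GMP (0.36, adjusted p = 0.255) passed when mouse 308 was left out (0.55, adjusted p = 0.037).

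Klf3 rose with Klf1 in CMP and MEP but fell in GMP. KO CMP had 39.8, 35.5 and 36.2 TPM against 13.96 to 17.9 TPM in WT, a log2 fold change of 1.04 (SE 0.08, adjusted p = 8.5e-05). KO MEP had 77.1, 78.5 and 70.8 TPM against 49.1 to 55.2 TPM in WT, a log2 fold change of 0.57 (SE 0.05, adjusted p = 0.00020). In both populations the KO libraries lay above the WT libraries. KO GMP had 8.43, 8.94 and 8.49 TPM against 10.5 to 13.3 TPM in WT, without overlap, and the log2 fold change was -0.34 (SE 0.07, adjusted p = 0.0066). The effect on Klf3 in GMP differed from that in CMP by -1.38 (SE 0.10) and that in MEP from that in GMP by 0.90 (SE 0.10) on the log2 scale. Klf3-201 held 68.3% to 76.4% of the Klf3 TPM in the CMP and GMP groups and 65.3% to 68.8% in the MEP groups, so most of the signal stayed in the same transcript in both genotypes.

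A list of 20 erythroid genes known to need KLF1 was examined beside Klf1. In CMP 18 of the 20 passed the test, all of them higher in KO, where 23.4% of all genes passed in either direction, with a median log2 fold change of 1.70 against -0.0027 over all genes. The largest changes were in Dmtn, a membrane skeleton protein (0.512 to 5.54 mean TPM, log2 fold change 3.32), Hbb-bt, an adult β-globin (15.1 to 134.6 TPM, 3.05), and Alas2, the first enzyme of erythroid heme synthesis (0.835 to 5.04 TPM, 3.02). Icam4 (0.29) and Fech (0.066), the enzyme that inserts iron into heme, did not pass. In MEP 13 rose and 1 (Fech, log2 fold change -0.17) fell, beside 29.4% of all genes, with a median of 0.55. Slc4a1, the band 3 anion exchanger (3.12), Alas2 (2.97) and Hbb-bs (2.86) changed most. In GMP 5 rose and 3 fell (Icam4, Bcl11a and Fech), a share near the 33.9% of all genes that passed, with a median of 0.26. The cell cycle factor E2f2 rose there (log2 fold change 1.74), and the red cell adhesion protein Icam4 fell (-1.15). In LT-HSC 0 of the 20 passed the test (median 0.25).

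The erythroid markers moved as well. Beside the marker counts given here, 23.4% of all genes passed in CMP and 29.4% in MEP, in either direction. In CMP 9 of 10 were higher in KO, and their summed level went from 1269 to 1377 TPM in WT to 1946 to 2326 TPM in KO, while 9 of 12 neutrophil markers were lower (4232 to 4912 against 1755 to 2695 TPM) and of 10 megakaryocyte markers 2 were higher and 6 lower (818 to 1190 against 662 to 690.5 TPM). Of the 7 lymphoid markers tested, 3 were higher and 1 lower in KO CMP (131 to 182 TPM in WT, 204 to 378.5 TPM in KO). Of the 20 genes on the KLF1 list, 3 are also among the 10 erythroid markers. In MEP 6 of the 10 erythroid markers were higher and 1 was lower, yet the sum was lower in KO (5963 to 6272 TPM) than in WT (7222 to 8108 TPM), since Car1, a carbonic anhydrase, had 1665 to 2432 TPM in KO against 3521 to 5013 TPM in WT. In GMP the erythroid marker sum was 132 to 180 TPM in WT and 160 to 180 TPM in KO. The part of these markers in the changes of Klf1, Klf3 and the KLF1 list was not tested.

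**Figure D5:**
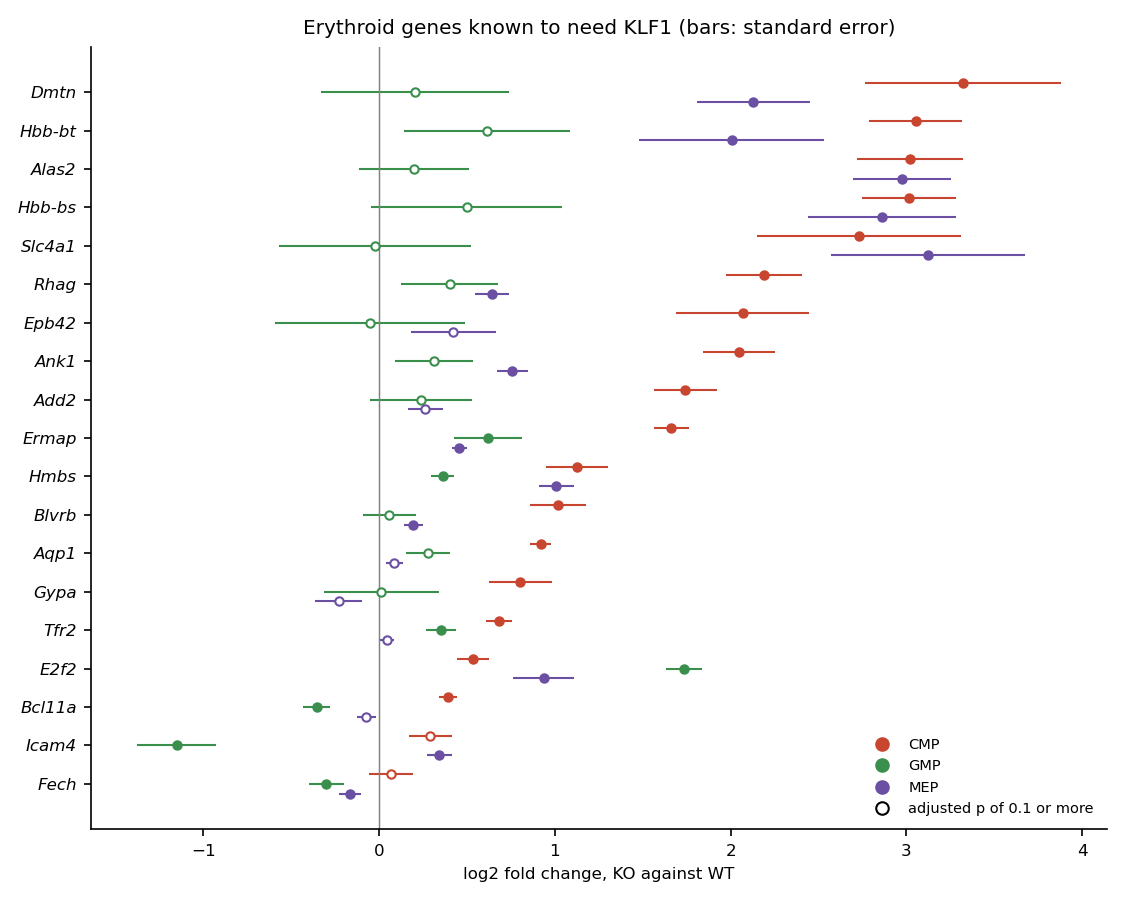
Log2 fold change, KO against WT, of erythroid genes known to need KLF1 (horizontal axis; 1 of the 20 is not shown) in CMP, GMP and MEP, with standard errors and open points where the adjusted p was 0.1 or more, ordered by the value in CMP. The CMP values run from 0.066 (Fech) to 3.32 (Dmtn), and E2f2 is the furthest to the right in GMP (1.74).

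Among 14 cofactors of KLFs, 1 rose and 1 fell in CMP, and 3 rose and 2 fell in each of GMP and MEP, with 0 passing in LT-HSC. Since 23.4%, 33.9% and 29.4% of all genes passed in CMP, GMP and MEP, these counts lie near or below the background, and the single cofactors are given as values. Ctbp2, which encodes a CtBP corepressor, fell in CMP (34.3 to 18.9 mean TPM, log2 fold change -0.99, SE 0.09) and in MEP (16.0 to 6.55 TPM, -1.31, SE 0.16). Ctbp1, the other CtBP gene of the list, did not pass in CMP (0.11, adjusted p = 0.197) or in MEP (-0.0015, adjusted p = 0.987). Gata1, a GATA factor that partners KLF1, had a log2 fold change of 0.35 in CMP (85.7 to 115 TPM) and -0.90 in GMP (14.1 to 6.68 TPM). Fhl3, which encodes a partner of KLF3, rose in GMP (0.72). Wwp1, a ubiquitin ligase, fell in GMP (-0.48) and rose in MEP (0.44), and the acetyltransferase gene Kat2b rose in MEP (0.53). Over the 14 cofactors the median log2 fold change lay between 0.0018 (MEP) and 0.079 (CMP), beside -0.0056 to -0.0020 over all genes of the precursors. Of 16 other KLF and SP genes, 9 passed the filter in each population. Among those, Klf16 (log2 fold change 0.27) and Sp4 (0.23) rose and Klf8 (-0.29) fell in CMP, Klf5 rose in GMP (0.69), and 4 rose in MEP, led by Klf11 (0.50), Klf16 (0.25) and Sp3 (0.20).

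Klf12 was scarce in CMP and passed the filter for low counts there only through the WT libraries, so that it could hardly have come out higher in KO. It had 0.0384, 0.0574 and 0.0167 TPM (2, 4 and 1 estimated counts) against 0.205 to 0.228 TPM (12 to 15 counts) in WT, and the log2 fold change was -2.52 (SE 0.52, adjusted p = 0.010), given as a description. In KO GMP all 3 libraries had 0 counts, against 1 to 5 in WT GMP, so no fold change is given. In LT-HSC, Klf12 had 5.26 and 2.998 TPM in WT and 0.962 and 0.468 TPM in KO, and both KO libraries lay below both WT libraries. The log2 fold change of -2.28 (SE 0.93, unadjusted p = 0.032) did not pass the adjustment (adjusted p = 0.876, edgeR's quasi-likelihood test). Klf12 was the only KLF gene with an unadjusted p under 0.05 in LT-HSC.

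Klf4 fell in CMP and GMP. WT CMP 300, 305 and 309 had 0.717, 2.71 and 4.46 TPM, a wide spread, and KO CMP had 0.190, 0.110 and 0.334 TPM, all below the lowest WT library. The estimated counts behind these values were 81 to 304 in WT and only 13 to 31 in KO. The log2 fold change was -3.65 (SE 0.63, adjusted p = 0.0043). In GMP the WT libraries had 0.696, 1.99 and 1.25 TPM and the KO libraries 0.658, 0.538 and 0.579 TPM, close to the lowest WT library, with a log2 fold change of -1.57 (SE 0.41, adjusted p = 0.021). The estimated counts there were 86 to 200 in WT and 32 to 69 in KO. The short Klf4-202 (522 bases) held 36.2% ± 31.7 of the Klf4 TPM in KO GMP and 0% in WT GMP (SD, n = 3 each). The difference between the CMP and GMP effects was 1.92 (SE 0.46, adjusted p = 0.012) with the mouse as a block, but the call was lost without the block (2.07, adjusted p = 0.123). In LT-HSC both KO libraries (0.279 and 0.177 TPM) were below both WT libraries (1.278 and 1.182 TPM), with a log2 fold change of -2.25 (SE 1.19, adjusted p = 0.876, edgeR's quasi-likelihood test).

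Monocyte and macrophage markers had summed levels of 261, 454 and 497 TPM in WT CMP 300, 305 and 309, the same order as Klf4, and 211 to 268 TPM in KO CMP. In GMP the sums were 272 to 413 TPM in WT and 220 to 280 TPM in KO. Of the 10 markers 1 rose and 4 fell in CMP (23.4% of all genes passed), and 3 rose and 5 fell in GMP (33.9%). Basophil and mast cell markers were lower in KO CMP (263 to 270 against 374 to 582 TPM) and in KO GMP (337 to 404 against 1068 to 1564 TPM). The part of either list in the change of Klf4 was not tested.

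Klf2 rose in GMP, from 0.346, 0.449 and 0.429 TPM in WT to 1.14, 2.17 and 1.39 TPM in KO, where every KO library lay above every WT library. The counts behind these values were 25 to 28 in WT and 76 to 149 in KO. This gave a log2 fold change of 2.11 (SE 0.32, adjusted p = 0.0013), a 4.31-fold rise. In CMP the ranges overlapped (0.316 to 0.877 TPM in WT, 0.560 to 0.907 TPM in KO), and the effect in GMP was larger than in CMP by 1.86 (SE 0.47) on the log2 scale. Klf6 rose in GMP as well, from 4.92 to 4.99 TPM in WT to 6.93, 7.84 and 6.12 TPM in KO (log2 fold change 0.64, SE 0.11, adjusted p = 0.0020). It had 7.14 to 8.07 TPM in KO CMP, across a WT range of 7.21 to 8.65 TPM (-0.22, adjusted p = 0.187; -0.30 and adjusted p = 0.064 without WT CMP 305), and the difference between GMP and CMP passed the test (0.86, SE 0.14). In MEP, Klf6 had 1.22 to 1.45 TPM in KO above 0.942 to 1.08 TPM in WT, but the log2 fold change of 0.34 (SE 0.15) did not pass (adjusted p = 0.159). Immediate early genes summed to 97.1 to 105 TPM in KO GMP against 78.4 to 85.3 TPM in WT GMP, with 3 of the 10 tested higher and 0 lower. Over all genes 33.9% passed in GMP, so this count lies near the background. Of 12 neutrophil markers 8 were higher and 2 lower in KO GMP (30390 to 35810 TPM in WT, 40070 to 46080 TPM in KO). The part of both lists in the GMP changes of Klf2, Klf6 and Klf7 was not tested.

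Klf7 fell in GMP, from 4.01, 3.77 and 5.42 TPM to 2.71, 2.09 and 2.06 TPM, without overlap (log2 fold change -0.85, SE 0.10, adjusted p = 0.00034). In CMP the KO libraries (2.83 to 3.15 TPM) lay within the WT libraries (5.22, 2.48 and 4.38 TPM), and the log2 fold change of -0.52 did not pass (adjusted p = 0.136). It passed by DESeq2 (adjusted p = 0.052), with no filter for low counts (0.076), in 1 fit of the 18 precursor libraries (0.075) and with neighbouring columns of the study's tables as a block (0.069). Without WT CMP 305, the low WT library, it was -0.76 (adjusted p = 0.0026). In MEP the ranges overlapped too (0.804 to 1.69 TPM in WT, 1.04 to 1.33 TPM in KO). Its log2 fold change of -0.53 (adjusted p = 0.089) passed narrowly, but it was -0.13 (adjusted p = 0.792) with an offset for transcript length. The mean share of Klf7-203 (553 bases) in MEP was 33.3% ± 11.8 in WT and 50.0% ± 3.10 in KO (SD, n = 3). The call was also lost with no filter for low counts (adjusted p = 0.106) and without WT MEP 300 or 309 or any single KO library (adjusted p from 0.167 to 0.252). No difference of the Klf7 effect between populations passed the test over all mice, and that between GMP and CMP (-0.37, adjusted p = 0.156) passed without mouse 300 (-0.54, adjusted p = 0.044).

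Klf13 fell in MEP, where the KO libraries had 9.38, 9.47 and 8.67 TPM against 17.7, 17.9 and 14.7 TPM in WT. The groups were well apart, and the log2 fold change was -0.86 (SE 0.06, adjusted p = 9.0e-05), a 1.81-fold fall. In CMP the change was small (22.7 to 23.3 TPM in KO, 24.1 to 26.0 TPM in WT, log2 fold change -0.23, SE 0.05, adjusted p = 0.017). In GMP the ranges overlapped (28.6 to 32.0 TPM in KO, 25.1 to 29.5 TPM in WT). The log2 fold change there was 0.18 (SE 0.06, adjusted p = 0.050), and the call was lost without KO GMP 301 or 304 or WT GMP 309 (adjusted p = 0.159, 0.138 and 0.238). The effect in MEP was lower than that in CMP by 0.63 (SE 0.08) and lower than that in GMP by 1.04 (SE 0.08) on the log2 scale, and both differences passed. In MEP 4 of 10 megakaryocyte markers were higher and 0 lower in KO (56.9 to 84.2 TPM in WT, 118 to 137 TPM in KO), and basophil and mast cell markers were lower (63.95 to 80.2 against 16.7 to 22.4 TPM). Immediate early genes summed to 48.2 to 56.9 TPM in WT MEP and 29.55 to 35.6 TPM in KO MEP, with 2 of the 9 tested higher and 4 lower. Beside these marker counts, 29.4% of all genes passed in MEP in either direction. The part of these markers in the MEP changes of Klf13 and Klf9 was not tested.

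Klf9 moved in opposite directions in GMP and MEP. In MEP it had 18.1, 18.3 and 17.3 TPM in KO against 13.1 to 14.7 TPM in WT, without overlap (log2 fold change 0.34, SE 0.06, adjusted p = 0.0048). With all 18 precursor libraries in 1 fit this call was lost (log2 fold change 0.34, adjusted p = 0.5235). In GMP it had 8.61, 14 and 7.49 TPM in WT and 2.67, 6.49 and 1.92 TPM in KO (mice 301, 304 and 308), and the highest KO library was just below the lowest WT library. The log2 fold change of -1.27 (SE 0.42, adjusted p = 0.052) lost its call without WT GMP 305 or KO GMP 301 or 308 (adjusted p = 0.155, 0.161 and 0.139), whereas without KO GMP 304 it was -2.01 (adjusted p = 0.0011). By DESeq2 its adjusted p was 0.106. The difference of the effects between MEP and GMP was 1.70 (SE 0.37, adjusted p = 0.0052), and that between GMP and CMP was -1.52 (SE 0.38, adjusted p = 0.013). In CMP the ranges overlapped (5.23 to 7.91 TPM in WT, 6.15 to 9.10 TPM in KO).

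Klf10 did not pass the test for KO against WT in any population, with log2 fold changes from -0.20 in LT-HSC to 0.10 in GMP. Its KO libraries lay within or across the WT range in CMP (19.7 to 21.8 against 17.4 to 24.8 TPM), GMP (9.05 to 9.69 against 8.16 to 10.9 TPM) and MEP (11.3 to 14.2 against 11.4 to 16.2 TPM). In LT-HSC both KO libraries (55.0 and 49.0 TPM) were below both WT libraries (64.7 and 74.9 TPM), with a log2 fold change of -0.20 (adjusted p = 0.899, edgeR's quasi-likelihood test).

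The other LT-HSC differences rested on libraries that spread widely. The log2 fold change of Klf1 was -0.042 (SE 0.45) and that of Klf3 was -0.35 (SE 0.33). Klf3 had 70.2 and 91.7 TPM in WT against 50.5 and 65.8 TPM in KO, and Klf2 had 4.30 and 12.9 TPM against 4.32 and 5.47 TPM. By CPM the Klf3 ranges overlapped (54.3 and 90.2 in WT, 47.7 and 68.5 in KO). The sign of the Klf1 value rested on single libraries. Without WT LT-HSC S269, the library with the highest Klf1, its log2 fold change was 0.89 (adjusted p = 0.00579), and without WT LT-HSC S245 it was -0.59. Each of these fits set 1 WT library against 2 KO libraries, took all its spread from the KO pair and assumed the lone library to vary like them, and the fit without S269 called 2516 genes in place of 18, so no call is read from it. The WT and KO ranges of Klf6, Klf7 and Klf13 overlapped, and Klf9 had 16.9 and 14.5 TPM in WT against 13.3 and 13.96 TPM in KO, with log2 fold changes from -0.39 to 0.11 over these 4 genes. By CPM the Klf9 ranges overlapped too (24.26 and 25.95 in WT, 24.55 and 28.63 in KO).

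The genes whose levels were most like those of each KLF gene over the 18 precursor libraries were found by Pearson's r of log2(TPM + 1) among 10281 genes with a mean of at least 5 TPM. Since these libraries fall into 3 populations, r mostly describes the population pattern. Klf1 was most like Epor, the erythropoietin receptor (r = 0.999), then A730089K16Rik and Abcb4 (0.998 and 0.997). Klf3 was most like Gm12999, Ell2 and Acmsd (0.987, 0.987 and 0.986), and its r with Klf1 was 0.941. Klf13 was most like Sh3bp1, Cyfip2 and Snx9 (0.985, 0.979 and 0.975), and Klf6 most like Kctd12, P2rx1 and Lyn (0.990, 0.987 and 0.987). Klf10 was followed by 0610010K14Rik, Pih1d1 and Stat5b (0.968, 0.955 and 0.949), Klf7 by Fgf3, B4galt7 and Marcks (0.951, 0.948 and 0.942) and Klf2 by Id2, Slfn2 and Bcl3 (0.934, 0.927 and 0.915). The nearest genes were less close for Klf4 (H2-Aa, 0.891; Ifi209, 0.875; F13a1, 0.862), Klf9 (Dtwd1, Lpcat1 and Rbm28, 0.883 to 0.874) and Klf12 (Unc119, 0.878).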

How the data were processed

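RNA was measured in 22 libraries of sorted mouse marrow cells, with poly-A libraries for CMP, GMP and MEP and a low-input kit for LT-HSC. The authors pseudoaligned the reads with kallisto 0.43.1 to Ensembl 84 transcripts (GRCm38) and deposited estimated counts, TPM values and effective lengths for 115088 transcripts per library. Fragments shared by transcripts are split between them, so a gene's total is firmer than a transcript's. The study names DESeq2 1.18.1 for its own tests.

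Of the transcripts, 114200 (99.2%) were paired with genes of GENCODE vM21, from which positions and transcript names come, and values were summed per gene. Unpaired transcripts held at most 0.363% of a library's counts. Summed counts were rounded and tested with edgeR 4.0.16 in R 4.3.3 (TMM, filterByExpr, quasi-likelihood F-test) over all genes passing the filter, with Benjamini-Hochberg adjustment and a threshold of 0.1. Each population was fitted apart for KO against WT. Interactions (18 libraries) and WT populations (9 libraries) were fitted with the mouse as a block. A fold change is KO over WT, and an interaction is the effect in the population named first less that in the other. Standard errors (SE) are the absolute log2 fold change over the square root of F. P-values measure only the spread between these samples. Fits were tested on simulated counts, with a single draw per comparison and 200 genes changed by a log2 of 1. For KO against WT in LT-HSC, edgeR recovered 0.5% of these, and 80% of its calls were false. That last share rests on very few calls and is no firm rate. In CMP, GMP and MEP, edgeR recovered 66.5% to 74.5% with 10.1% to 14.2% of its calls false. DESeq2 recovered 70% to 79% there with 23.3% to 30% of its calls false.

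The members, the lists and the tests were chosen with earlier results of these data known. Named genes are the 10 members, Arid1a, the 3 called genes of each list with the largest absolute log2 fold change per population, and the 3 genes most like each member. Others (Icam4 in CMP, Fech, Bcl11a, Ctbp1, single cell markers) were named after their values were seen. Alternatives were size factors from medians of ratios, no filter, a length offset, DESeq2 1.42.0, 1 fit of the 18 precursor libraries, CPM in place of TPM for the levels, a block of WT and KO samples that stand side by side in the study's tables, and each replicate left out. In that check the deviations of side-by-side samples correlated with r from 0.116 to 0.221 in CMP, 0.208 to 0.263 in GMP and -0.030 to 0.259 in MEP, and 0.329 in LT-HSC. The pairing comes only from column order, which no source calls a pairing. Genotypes were taken from the labels. Of the erythroid genes known to need KLF1, 1 is counted but not reported here by name.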

Additional observations from a re-analysis of the deposited data

Results flagged for a closer look

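The effect of the deletion differed between populations by the interaction test of edgeR for the following KLF genes, given as differences of log2 fold changes. For GMP less CMP they were -1.14 for Klf1, 1.86 for Klf2, -1.38 for Klf3, 1.92 for Klf4, 0.86 for Klf6, -1.52 for Klf9 and 0.41 for Klf13. For MEP less CMP they were -0.78 for Klf1, -0.47 for Klf3, 0.54 for Klf6, 4.15 for Klf12 and -0.63 for Klf13. For MEP less GMP they were 0.90 for Klf3, 1.70 for Klf9, -0.23 for Klf10, 6.03 for Klf12 and -1.04 for Klf13.

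The values of Klf12 are fitted against groups with 0 to 6 counts (KO GMP at 0 in all libraries), depend on the prior count and are no measure of size. They went from 4.15 to 7.46 and from 6.03 to 9.48 without mouse 300. Klf12 for MEP less CMP lost its call with no filter for low counts (adjusted p = 0.195) and without mouse 301, 304, 305 or 309, and for MEP less GMP without 301, 304 or 309. Klf10 for MEP less GMP lost its call with no filter (adjusted p = 0.238), without the mouse as a block (0.444) and with any of mice 300, 301, 305, 308 or 309 left out, and Klf6 for MEP less CMP with 301, 304 or 309 left out. Klf9 for MEP less GMP was 2.30 without mouse 304.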

How the results depend on the processing

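Estimated counts at or below 15 per library limited Klf12 in the precursors and Klf2 and Klf4 in MEP. Klf4 in KO CMP rested on 13 to 31 counts, and 2 libraries per genotype limited LT-HSC. Of 910 recomputed log2 fold changes and differences of the 10 genes, 831 kept their direction and their side of the threshold, 38 lost and 12 gained the call and 29 turned in sign. The cause of these changes was not tested.

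With the column-order pairing as a replicate block, 7 genes passed in CMP in place of 5 (Klf6 and Klf7 were added), and 7 in GMP, 5 in MEP and 0 in LT-HSC passed as in the fit without it; there the log2 fold change of Klf1 was 0.14 in LT-HSC and -0.00645 in GMP, both of the other sign. In CMP and GMP every WT sample deviated most like the KO sample beside it in the tables, a hint from the data and not the design, and in MEP the first pair did not. With the length offset the sign turned for Klf7 (0.0081) and Klf13 (-0.12) in LT-HSC and Klf1 (-0.011) in GMP.

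With 1 replicate left out, the number of genes passing ranged from 0 to 1 in LT-HSC (1 without WT S269), 3 to 5 for MEP less CMP and 3 to 6 for MEP less GMP. Signs turned within these ranges: in LT-HSC Klf1 -0.59 to 0.89, Klf2 -1.29 to 0.55, Klf3 -0.65 to 0.015, Klf6 -0.15 to 0.35, Klf9 -0.031 to 0.17, Klf10 -0.42 to 0.045 and Klf13 -0.041 to 0.27; Klf2 -0.20 to 0.42 and Klf10 -0.20 to 0.036 in CMP; Klf1 -0.17 to 0.13 and Klf10 -0.0097 to 0.17 in GMP; Klf10 -0.22 to 0.016 in MEP. The same held for MEP less CMP in Klf7 (-0.10 to 0.041), Klf9 (-0.0098 to 0.31) and Klf10 (-0.11 to 0.022), for MEP less GMP in Klf4 (-0.52 to 1.16) and for WT MEP against GMP in Klf12 (-4.54 to 0.13).

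By CPM in place of TPM, 4 of 36 log2 ratios of mean levels moved by more than the spread between replicates: in LT-HSC Klf9 went from -0.20 to 0.083, Klf10 from -0.42 to -0.17 and Klf13 from -0.39 to 0.14, and in CMP Klf13 went from -0.10 to -0.22.

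Over all genes, 18 passed in LT-HSC, against 286 with no filter, 204 by DESeq2, 115 with the block and 50 to 2516 with 1 library left out. Without a replicate the counts were as low as 3040 in MEP (301; 4638 in full), 2577 for GMP less CMP (309; 3885), 1611 and 1464 for MEP less CMP (301 and 309; 2418) and 5253 for WT GMP against CMP (309; 7914).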
